A study of Mus musculus with 8 samples.

Results

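The genes described here encode the nuclear subunits of the mitochondrial respiratory chain and of ATP synthase. They were chosen by name, as probe sets with a single gene symbol in the array's annotation that starts with Ndufa, Ndufb, Ndufc, Ndufs, Ndufv, Sdha, Sdhb, Sdhc, Sdhd, Uqcr, Cox5, Cox6, Cox7, Cox8 or Atp5, or is Cycs or Cyc1, without Ndufa4l2 and the Ndufaf genes. The rule found 85 of the 18193 genes on the array, read by 177 of its 45101 probe sets, and used no measured value. Of these, 34 belong to complex I, 4 to complex II, 9 to complex III, 16 to complex IV and 17 to ATP synthase (complex V), and 1 is cytochrome c. The remaining 4, Sdhaf1 to Sdhaf4, carry the Sdha prefix but encode assembly factors of complex II, so they are counted with the 85 genes and described apart.

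The study deleted FIH, VHL or both in mouse embryonic fibroblasts (MEFs) that had been immortalized with large T antigen. The 4 groups of 2 samples each lacked FIH (FIH null), lacked VHL (VHL null), lacked both (VHL/FIH null) or were wild type. All 8 samples shared the large T antigen, growth at 21% oxygen and the same kind of medium. Each null group was made by infecting its own line, named FIHdf, VHLdf or VHLdf/FIHdf, with an adenovirus carrying Cre, so genotype and line of origin cannot be told apart, and the labels name neither a line nor Cre for the wild type cells.

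The respiratory chain passes electrons from NADH (complex I) and succinate (complex II) through complex III and cytochrome c to oxygen at complex IV, and ATP synthase uses the proton gradient that complexes I, III and IV build. VHL is the recognition part of a ubiquitin ligase that removes the alpha subunits of hypoxia-inducible factor (HIF), and FIH (gene Hif1an) hydroxylates an asparagine in them that limits coactivator binding. HIF is known to curb the entry of pyruvate into mitochondria and to exchange some respiratory subunits for other isoforms.

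Of the 85 genes, 82 were tested, since 2 or more arrays read them above 291.1, which is the median signal of the data set. Of these, 79 lay above it on all 8 arrays. Ndufb4, Cox8b and Cox7b2 stayed low and were not tested. Ndufb4 read 49.3 to 217 over the 8 arrays, Cox8b, the muscle and brown fat form of subunit VIII, 13.6 to 144, and Cox7b2, a testis form, 2.9 to 11.7. Ndufb4 is also read by 2 bright probe sets that it shares with Ndufb4b and Ndufb4c, so its low value belongs to its own probe set only. In all, 10 further probe sets name a subunit together with another gene and were left out of the gene counts.

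Every array had the same trimmed mean of 2500.01, so each change is relative to the array's own level. Vhl signal was 731 ± 33.2 in VHL null, 979 ± 116 in VHL/FIH null and 3294 ± 36.0 in wild type cells (SD, n = 2 each). Hif1an signal was 1691 ± 21.7 in FIH null, 1286 ± 166 in VHL/FIH null and 2867 ± 206 in wild type cells, and it was also lower in VHL null cells, at 2033 ± 169.9. Of 10 fibroblast markers, 7 in FIH null, 9 in VHL null, 6 in VHL/FIH null and 8 in wild type cells were above 291.1 on both arrays. The summed fibroblast signal was 325191 to 347176 in FIH null, 295442 to 302402 in VHL null, 289750 to 329889 in VHL/FIH null and 281611 to 296624 in wild type cells, with Vim, Fn1, Col1a1 and Col1a2 high, and with Lum below 291.1 on every array. Pdgfra, another fibroblast marker, read 160 and 190 in VHL/FIH null against 777 and 1243 in wild type cells. Of 6 macrophage markers 3 were above 291.1 on both arrays in every group, and of 5 endothelial markers 0 were. Differences are given on the scale of log2(signal + 16), tested with limma over 11564 genes. Spiked hybridization controls read 0.26, 0.38 and 0.52 higher on the log2 scale on FIH null arrays, VHL null arrays and VHL/FIH null arrays than on wild type arrays, and scaling to them moves the median of all genes down by as much.

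Of the 82 tested genes, 26 were higher and 9 lower in VHL null than in wild type cells, at an adjusted p under 0.05. Over all 11564 genes 15.5% were higher and 28.4% lower, 43.8% in either direction. The median log2 difference of the 82 genes was 0.10, and that of all genes was -0.10. This direction depended on the scale: quantile normalization gave 11 higher and 16 lower (median -0.02), centring each array on its median 42 and 3, centring each chromosome 44 and 2, and scaling to the hybridization controls 1 and 64 (median -0.28, against -0.47 for all genes). The count of higher genes was 12 without VHL null replicate 1, 14 without wild type replicate 1 and 16 without wild type replicate 2, and the count of lower genes was 5 without VHL null replicate 1. A fitted change of at least 1.5-fold was called for 2 genes, Ndufv3 and Cox7a1. Wild type arrays read Cox7a1 below 291.1, so only the lower bound given below holds for it, and that bound is under 1.5-fold.

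In VHL/FIH null cells 20 of the 82 genes were higher and 13 lower than in wild type cells, against 17.8% and 23.6% of all genes (41.4% in either direction). The median of the 82 was 0.05 and that of all genes -0.05. Quantile normalization gave 12 higher and 22 lower, centring on the array median 31 and 8, centring each chromosome 29 and 8, and scaling to the hybridization controls 2 and 76. Without wild type replicate 1 the counts were 12 and 8. The comparisons of VHL null and VHL/FIH null cells with wild type share the wild type arrays, so their values stand side by side below and their overlap is no result.

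**Figure D1:**
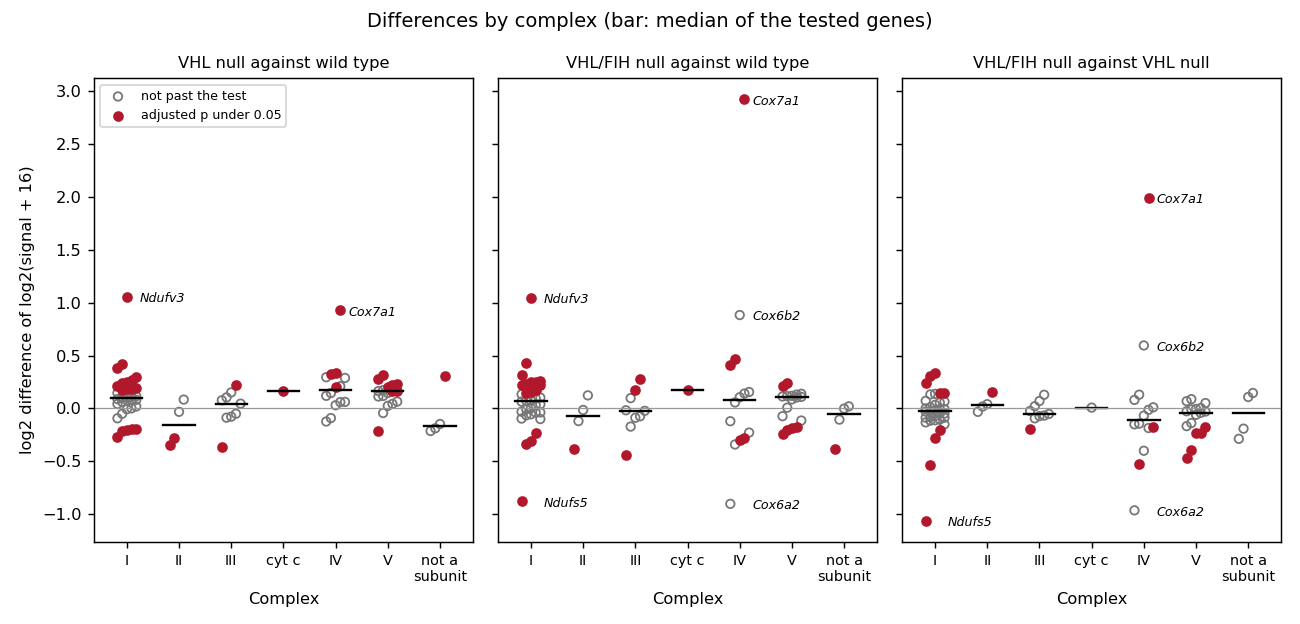
Log2 differences of the 82 tested genes by complex (horizontal axis) in VHL null against wild type, VHL/FIH null against wild type and VHL/FIH null against VHL null cells. Filled points passed limma's test at an adjusted p under 0.05, open points did not, and bars are medians of the tested genes. Most genes lie near 0, and the named points, such as Ndufv3 at 1.06 and 1.05 against wild type, lie apart from the rest.

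**Figure D2:**
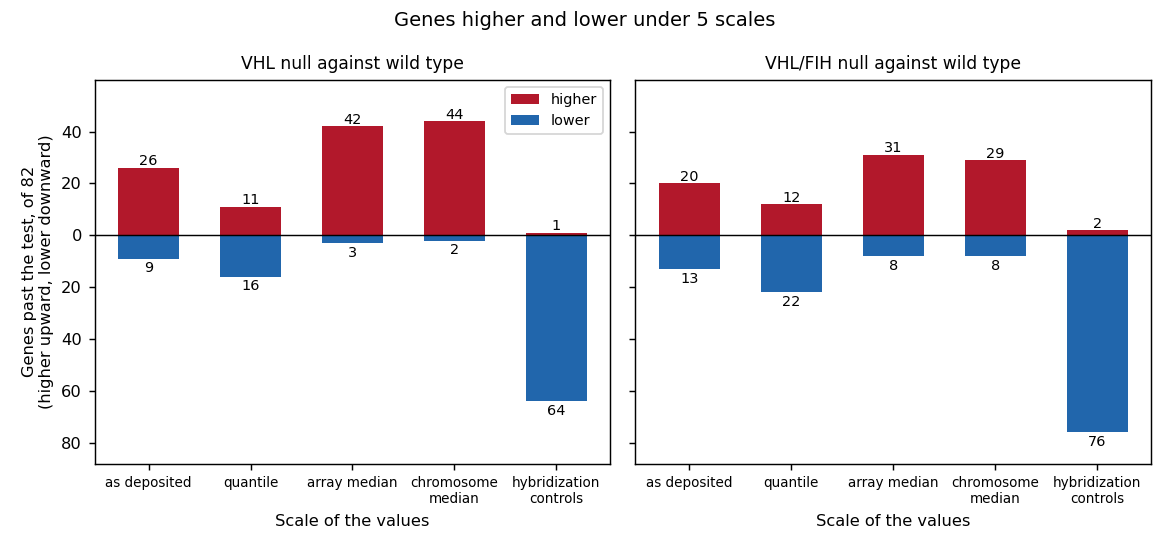
Number of the 82 genes called higher (upward) and lower (downward) against wild type on 5 scales of the same signals. In VHL null cells 26 genes were higher and 9 lower on the deposited scale, and 1 higher and 64 lower when arrays were scaled to the hybridization controls.

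The 250 bases before the annotated start of each gene were read from RefSeq (GRCm38.p6), in which 72 of the 85 genes were matched. The 4 promoters below are shown as examples of different patterns on the deposited scale: Ndufv3 and Cox5a, which were higher in both groups without VHL (Cox5a not on the hybridization scale), Sdha, which was lower, and Cox7a1, which was high in VHL/FIH null cells. Capitals mark the core of the HIF binding motif, ACGTG or GCGTG, on either strand, where the reverse strand reads as CACGT or CACGC.
Ndufv3 promoter, chr17:31519865-31520114, + strand: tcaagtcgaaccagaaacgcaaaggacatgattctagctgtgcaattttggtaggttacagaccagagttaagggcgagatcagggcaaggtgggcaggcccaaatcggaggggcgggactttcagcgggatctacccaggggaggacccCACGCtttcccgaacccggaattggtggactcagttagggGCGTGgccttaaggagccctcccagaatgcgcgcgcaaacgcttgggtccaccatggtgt
Cox5a promoter, chr9:57520982-57521231, + strand: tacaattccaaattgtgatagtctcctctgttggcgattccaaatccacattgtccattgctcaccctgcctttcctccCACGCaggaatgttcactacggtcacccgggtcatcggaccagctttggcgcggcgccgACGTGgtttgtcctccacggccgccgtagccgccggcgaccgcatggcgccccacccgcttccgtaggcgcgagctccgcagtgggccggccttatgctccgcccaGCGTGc
Sdha promoter, chr13:74350241-74350490, - strand: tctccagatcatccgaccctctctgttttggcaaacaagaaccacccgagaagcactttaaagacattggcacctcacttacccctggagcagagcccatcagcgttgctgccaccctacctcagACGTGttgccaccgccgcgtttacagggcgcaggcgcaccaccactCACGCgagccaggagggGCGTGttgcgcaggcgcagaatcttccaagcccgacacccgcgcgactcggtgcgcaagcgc
Cox7a1 promoter, chr7:30183921-30184170, + strand: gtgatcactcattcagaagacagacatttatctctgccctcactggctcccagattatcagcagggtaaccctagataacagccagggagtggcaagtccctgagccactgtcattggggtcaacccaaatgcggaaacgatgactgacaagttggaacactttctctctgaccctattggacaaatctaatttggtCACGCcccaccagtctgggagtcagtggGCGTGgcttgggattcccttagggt
All 4 hold such a core, but they were picked as examples. Of the genes higher in both groups without VHL, 8 of 13 with a promoter sequence held a core. Of the genes lower in both, 4 of 5 did. ACGTG or GCGTG was present in 55.6% of the subunit promoters (40 of 72) and in 41.5% of all 27025 mouse promoters of the same length, so a match in this window is common. The motif of NRF1, a regulator of nuclear genes for mitochondria, GCGCA, any base, then GCGC, stood in 15.3% of the subunit promoters against 4.23% of all. The ETS motif CCGGAAG, bound by GABP, stood in 19.4% against 7.83%, and the YY1 motif AANATGGCG in 5.56% against 1.29%, each on either strand. Such letters are a description and do not show binding.

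Complex I, the NADH dehydrogenase, had 33 tested genes. In VHL null cells 12 were higher and 5 lower than in wild type (median 0.10). In VHL/FIH null cells 12 were higher and 4 lower (median 0.07). Of all genes 15.5% were higher and 28.4% lower in VHL null, and 17.8% and 23.6% in VHL/FIH null against wild type cells. The counts of each complex below stand beside the same shares. Quantile normalization gave 6 higher and 5 lower in VHL null and 9 and 7 in VHL/FIH null cells, and scaling to the hybridization controls gave 1 and 26 in VHL null and 1 and 31 in VHL/FIH null cells. Of the 6 tested core genes, whose products carry the redox centres, 2 were higher and 1 lower in VHL null cells, and of the 27 accessory genes 10 were higher and 4 lower.

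Ndufv3, an accessory subunit of the NADH-binding module, had the largest difference from wild type within complex I in both groups without VHL. Its signal was 17352 and 17066 in FIH null, 33076 and 33374 in VHL null, 35312 and 30937 in VHL/FIH null and 15718 and 16242 in wild type cells. The 4 arrays without VHL lay at about the same high level and did not overlap the other 4. It was 2.08-fold higher in VHL null than in wild type cells (log2 1.06, SE 0.065, adjusted p = 6.65e-07), 2.07-fold higher in VHL/FIH null than in wild type (adjusted p = 3.99e-07) and 1.92-fold higher in VHL/FIH null than in FIH null cells (adjusted p = 8.07e-07). Each of the 3 calls held in all 22 alternatives, scaling to the hybridization controls included. VHL/FIH null and VHL null cells differed by -0.01, which did not pass.

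Ndufa1, an X-linked accessory subunit needed for assembly, read 48150 and 47270 in VHL null, 43955 and 44332 in VHL/FIH null and 35009 and 36144 in wild type cells. Both null groups lay above wild type, with log2 differences of 0.42 (adjusted p = 8.23e-05) and 0.31 (adjusted p = 0.000579), the first ending at 0.05 (adjusted p = 0.509) and the second turning to -0.21 (adjusted p = 0.00553) on the scale of the hybridization controls. Ndufb6, an accessory subunit of the membrane arm, read 32955 and 34194 in VHL null, 35894 and 37980 in VHL/FIH null and 26242 and 28473 in wild type cells. Its differences were 0.30 (adjusted p = 0.00304) and 0.43 (adjusted p = 0.00025), which became -0.08 and -0.09 on the hybridization scale, while its other probe set gave only 0.03 and 0.10. Ndufa2, another accessory subunit, read 53541 and 55882 in VHL null, 48622 and 46456 in VHL/FIH null and 42102 and 41981 in wild type cells. It was 0.38 higher in VHL null (adjusted p = 0.000237) and 0.18 higher in VHL/FIH null cells (adjusted p = 0.0208), and lower by -0.20 in VHL/FIH null than in VHL null cells (adjusted p = 0.012). On the hybridization scale the VHL null rise ended (adjusted p = 0.981) and the VHL/FIH null difference turned to -0.35 (adjusted p = 4.74e-05). The VHL/FIH null rise in Ndufa2 was also lost with quantile normalization (adjusted p = 0.298) and when wild type replicate 1, wild type replicate 2 or VHL/FIH null replicate 1 was left out (adjusted p = 0.0872, 0.0888 and 0.0662), and its -0.20 was lost without VHL null replicate 2 (adjusted p = 0.0888) and with chromosome centring (adjusted p = 0.388).

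Ndufv1, the core subunit that binds NADH and FMN, moved the other way. It read 27747 and 26812 in FIH null, 23690 and 24245 in VHL null, 21988 and 22245 in VHL/FIH null and 28023 and 26717 in wild type cells. All 4 arrays without VHL lay below the other 4. The log2 signal fell by 0.31 in VHL/FIH null against wild type cells (SE 0.054, adjusted p = 0.000886), a call that held in all 22 alternatives, and by 0.19 in VHL null cells (adjusted p = 0.0138). The VHL null call was lost with median centring (adjusted p = 0.16), with chromosome centring (adjusted p = 0.105) and when wild type replicate 1 or VHL null replicate 1 was left out (adjusted p = 0.105 and 0.0794). Its 3 probe sets all gave lower values in VHL/FIH null cells. Ndufs7, a core iron-sulfur subunit, was higher by 0.25 in each of both null groups, with both of its probe sets higher, but at -0.13 in VHL null and -0.28 in VHL/FIH null cells on the hybridization scale.

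Ndufs8, a core iron-sulfur subunit, was low in the cells without both proteins. It read 48613 and 45496 in FIH null, 47408 and 43356 in VHL null, 30003 and 32821 in VHL/FIH null and 38417 and 40848 in wild type cells, so that the VHL/FIH null arrays were the lowest. It fell by 0.53 in VHL/FIH null against VHL null (SE 0.069, adjusted p = 0.000149), by 0.58 against FIH null (adjusted p = 4.69e-05) and by 0.34 against wild type cells (adjusted p = 0.00243). These 3 calls held in all 22 alternatives. All 6 of its probe sets read lower in VHL/FIH null than in wild type, by 0.24 to 0.48, and 5 of 6 read lower than in VHL null cells. Its rise of 0.19 in VHL null against wild type (adjusted p = 0.0392) rests on the brightest probe set, since the other 5 read lower there, and was lost without VHL null replicate 1 (adjusted p = 0.26), wild type replicate 1 (adjusted p = 0.217), wild type replicate 2 (adjusted p = 0.0564) or either FIH null replicate (adjusted p = 0.0519 and 0.0517).

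The probe set annotated to Ndufs5, an accessory subunit, also stood low in VHL/FIH null cells. It read 16802 and 16743 in FIH null, 19578 and 17825 in VHL null, 8998 and 8898 in VHL/FIH null and 16013 and 16894 in wild type cells. It fell by 1.06 against VHL null (SE 0.062, adjusted p = 3.31e-07) and by 0.88 against wild type cells (adjusted p = 1.05e-06), in all 22 alternatives that use this probe set. The annotation pairs this probe set with an accession that the RefSeq table gives to Ndufs5-ps, a pseudogene, the only mismatch among 58 subunit probe sets that could be compared. A second probe set, annotated to Ndufs5 and Ndufs5-ps together, read 20646 and 22494 in VHL/FIH null, 18797 and 19612 in VHL null, 18776 and 18835 in FIH null and 17613 and 17648 in wild type cells. There the VHL/FIH null arrays were the highest, by 0.29 over wild type (adjusted p = 0.00406), an alternative chosen after seeing the data. Which of the 2 transcripts fell cannot be told apart here.

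**Figure D3:**
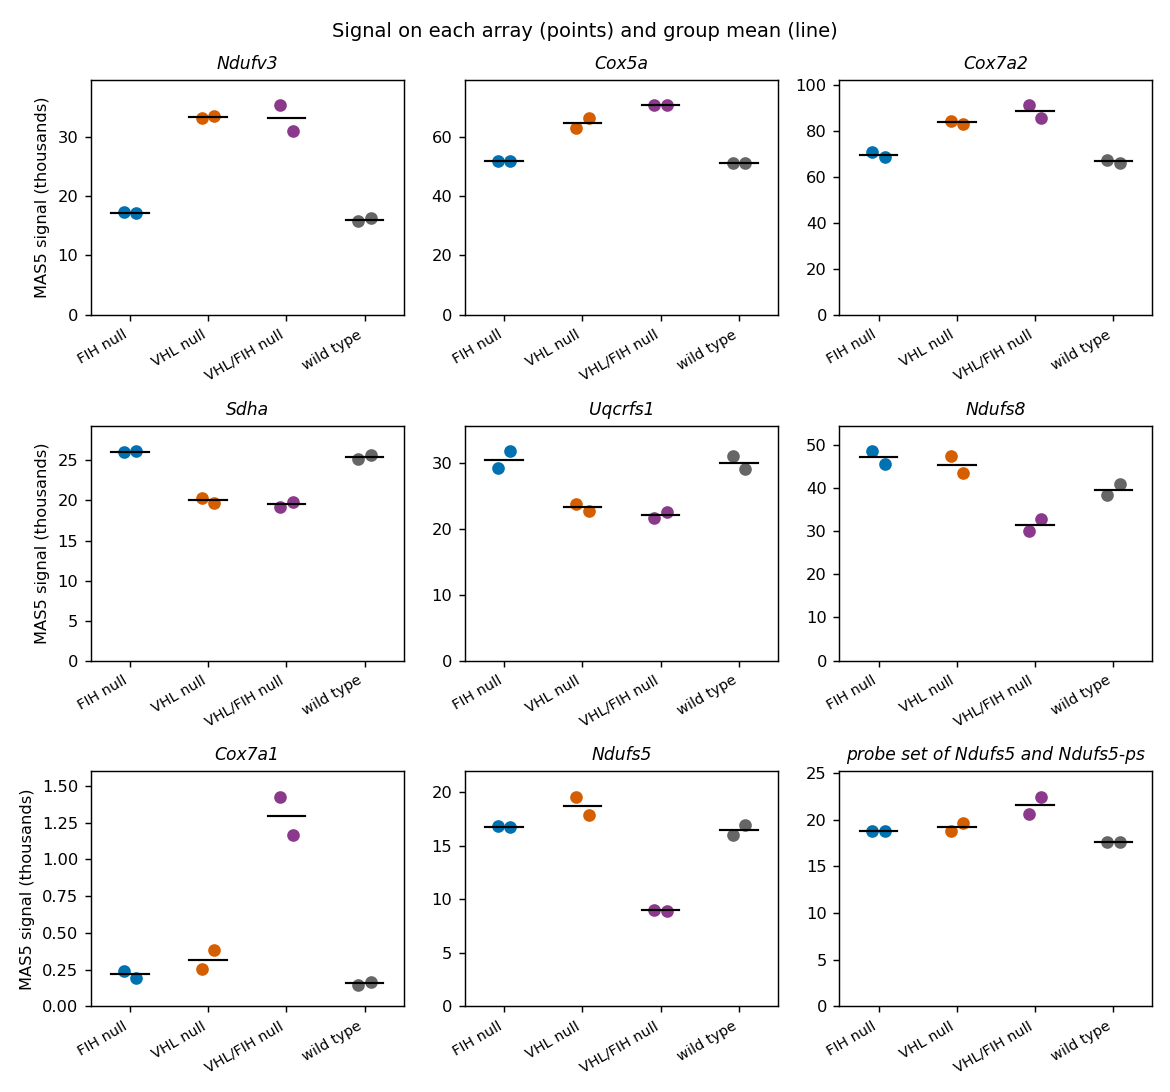
MAS5 signal (vertical axis, scaled as its label states) on each array (points) and the mean of the 2 arrays of a group (lines) for 8 genes and for the probe set shared by Ndufs5 and Ndufs5-ps. Ndufv3, Cox5a and Cox7a2 are high and Sdha and Uqcrfs1 low in both groups without VHL, Ndufs8 and the Ndufs5 probe set are low and Cox7a1 high in VHL/FIH null cells, and the shared probe set shows no such fall. On the scale of the hybridization controls Cox5a and Cox7a2 turn to -0.04 and -0.05 in VHL null against wild type cells.

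Several complex I calls rest on a probe set that others of the same gene do not follow. Of 17 genes called higher in VHL null against wild type cells with several tested probe sets, 13 had all of them higher, and of 6 called lower, 3 had all of them lower. Ndufb11, an X-linked accessory subunit, was called 0.28 higher in FIH null cells and lower by -0.21 and -0.24 in VHL null and VHL/FIH null against wild type cells, but 2 of its 3 probe sets were higher against wild type in both of these groups, and the mean of its probe sets gave 0.07 and 0.03. Leaving out wild type replicate 1 ended both calls (adjusted p = 0.323 and 0.204), as did leaving out either VHL null replicate for the first (adjusted p = 0.0905 and 0.151) and VHL/FIH null replicate 2 for the second (adjusted p = 0.0892). Ndufb2 was called lower in VHL null cells by -0.20 while its probe sets ran from -0.33 to 0.42. Opposite signs, with at least 1 probe set past the test, also occurred for Ndufa3, Ndufa12, Ndufab1, Ndufb6, Ndufb7, Ndufb9, Ndufc2 and Ndufs4. Ndufab1, the mitochondrial acyl carrier protein, was not called, with probe sets from -0.28 to 0.90 in VHL/FIH null against wild type cells. Outside complex I the same held for Cox5b and Atp5a1.

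Complex II, succinate dehydrogenase, also serves the tricarboxylic acid cycle and had no gene called higher against wild type in VHL null or VHL/FIH null cells by limma. At an unadjusted p under 0.05, 0 of its 4 genes were higher in VHL null and 1 in VHL/FIH null cells. In VHL null cells 2 of its 4 genes were lower, and in VHL/FIH null cells 1 was. Sdha, the flavoprotein that oxidizes succinate, read 26012 and 26214 in FIH null, 20364 and 19641 in VHL null, 19242 and 19859 in VHL/FIH null and 25142 and 25741 in wild type cells. All 4 arrays without VHL lay below all 4 arrays with VHL. It fell by 0.35 in VHL null (SE 0.053, adjusted p = 0.000385) and by 0.38 in VHL/FIH null against wild type cells (adjusted p = 0.000186), and all 3 of its tested probe sets read below wild type in both. The VHL null call ended when each chromosome was centred on its own median (adjusted p = 0.0618), since the genes of chromosome 13, where Sdha lies, had a median of -0.23 in that comparison.

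Sdhc, a membrane anchor, read 25666 and 25153 in FIH null, 19615 and 19385 in VHL null, 21994 and 21448 in VHL/FIH null and 23243 and 23973 in wild type cells. It fell by 0.28 in VHL null against wild type cells (adjusted p = 0.00152), a call that held in all 22 alternatives, and its -0.12 in VHL/FIH null cells did not pass. It was 0.16 higher in VHL/FIH null than in VHL null cells (adjusted p = 0.0359), a call lost in 13 of 22 alternatives, 5 of them with an array left out, among these VHL null replicate 2 (adjusted p = 0.13). Sdhb, the iron-sulfur subunit, differed from wild type by -0.03 and -0.01 in VHL null and VHL/FIH null cells, and Sdhd, the other anchor, by 0.08 and 0.12, none of which passed. The assembly factor Sdhaf2, which adds flavin to Sdha, was 0.31 higher in VHL null against wild type cells (adjusted p = 0.0471), a call lost in 8 of 22 alternatives, among them leaving out VHL null replicate 1 (adjusted p = 0.223), VHL null replicate 2 (adjusted p = 0.0841), wild type replicate 1 (adjusted p = 0.128) or wild type replicate 2 (adjusted p = 0.136). Sdhaf3, another factor, fell by 0.38 in VHL/FIH null against wild type cells (adjusted p = 0.0212), and this call was lost without wild type replicate 1 (adjusted p = 0.0831), wild type replicate 2 (adjusted p = 0.0727) or VHL/FIH null replicate 1 (adjusted p = 0.15). Sdhaf1 and Sdhaf4 passed in no comparison.

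Complex III, ubiquinol-cytochrome c reductase, had 1 gene higher and 1 lower of 9 in VHL null, and 2 higher and 1 lower in VHL/FIH null against wild type cells. Uqcrfs1, the Rieske iron-sulfur protein, was the lower gene in both. It read 29228 and 31901 in FIH null, 23778 and 22810 in VHL null, 21650 and 22636 in VHL/FIH null and 31042 and 29051 in wild type cells, with no overlap between arrays with and without VHL. It fell by 0.37 in VHL null (SE 0.063, adjusted p = 0.00084) and by 0.44 in VHL/FIH null cells (adjusted p = 0.00023). Uqcrfs1 also lies on chromosome 13, and its VHL null call ended with chromosome centring (adjusted p = 0.0781), while the VHL/FIH null call held in all 22 alternatives.

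Uqcrb, a small subunit near the quinone site, read 91271 and 86737 in VHL null, 100872 and 93833 in VHL/FIH null and 79191 and 81076 in wild type cells. It was 0.28 higher in VHL/FIH null against wild type cells (adjusted p = 0.00291), a call lost with quantile normalization (adjusted p = 0.147) and turned to -0.24 on the hybridization scale, and its 0.15 in VHL null cells did not pass. Uqcrh, the hinge protein, was 0.22 higher in VHL null (adjusted p = 0.00588) and 0.17 higher in VHL/FIH null cells (adjusted p = 0.0239). Quantile normalization ended both calls (adjusted p = 0.169 and 0.411), and the hybridization scale turned them to falls of -0.15 (adjusted p = 0.0384) and -0.35 (adjusted p = 0.000158). The first call was also lost without wild type replicate 1 (adjusted p = 0.0521) or VHL null replicate 1 (adjusted p = 0.0567), and the second without wild type replicate 1 (adjusted p = 0.138) or wild type replicate 2 (adjusted p = 0.0614). Cyc1, cytochrome c1, differed from wild type by 0.10 in VHL null and -0.09 in VHL/FIH null cells, neither past the test. The other 5 complex III genes passed in neither comparison with wild type.

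Cytochrome c, encoded by Cycs, carries electrons between complexes III and IV. Its signal was 72402 and 74264 in VHL null, 74944 and 72487 in VHL/FIH null and 64715 and 65732 in wild type cells. It was 0.17 higher in VHL null (adjusted p = 0.0215) and 0.18 higher in VHL/FIH null cells (adjusted p = 0.0182), with all 3 probe sets higher in both, but quantile normalization turned these to -0.03 and -0.01 and the hybridization controls to -0.21 and -0.35. The calls were also lost without wild type replicate 1 (adjusted p = 0.116 and 0.107) and without wild type replicate 2 (adjusted p = 0.0734 and 0.067), and in VHL null cells without VHL null replicate 1 (adjusted p = 0.0612) or VHL null replicate 2 (adjusted p = 0.117).

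**Figure D4:**
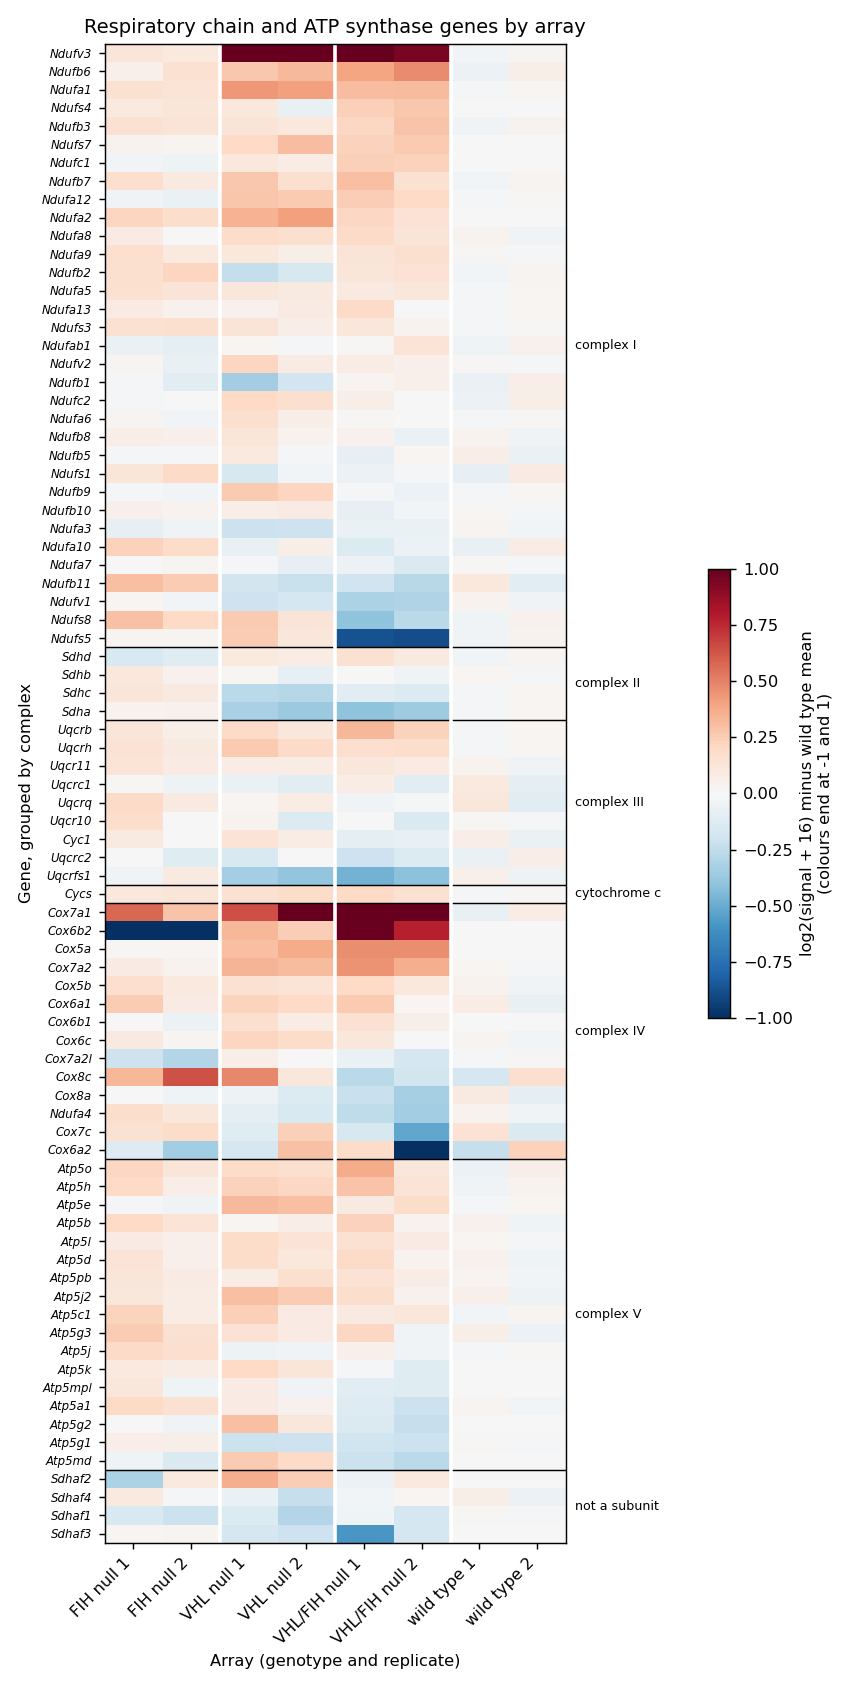
Log2(signal + 16) of each of the 82 tested genes on each array, minus the mean of the 2 wild type arrays, as deposited. Rows are genes grouped by complex and ordered by the difference of VHL/FIH null from wild type, columns are arrays, and colours end at -1 and 1. Rows with strong colour include Ndufv3 and Cox7a1 above wild type, the Ndufs5 probe set below it on VHL/FIH null arrays, and Cox6b2 below it on both FIH null arrays, where FIH null and wild type signals are under 291.1. Cox6a2 differs between the 2 VHL/FIH null arrays, at 375 and 70.9.

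Complex IV, cytochrome c oxidase, had 14 tested genes, among them tissue isoforms. In VHL null cells 4 were higher and 0 lower than in wild type by limma (6 higher and 0 lower at an unadjusted p under 0.05, median 0.17), and in VHL/FIH null cells 3 were higher and 2 lower (median 0.08). Quantile normalization gave 3 higher and 2 lower in VHL null and 3 and 4 in VHL/FIH null cells. Cox5a, a matrix subunit, read 51645 and 51887 in FIH null, 62960 and 66089 in VHL null, 70502 and 70645 in VHL/FIH null and 50950 and 51234 in wild type cells. The VHL/FIH null arrays were the highest, the VHL null arrays next, and FIH null and wild type arrays lay together. It was 0.34 higher in VHL null (SE 0.052, adjusted p = 0.000426) and 0.47 higher in VHL/FIH null against wild type cells (adjusted p = 3.71e-05), in all 3 probe sets, and turned to -0.04 and -0.06 on the hybridization scale.

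Cox7a2, the form of subunit VIIa found in most tissues, read 84358 and 83192 in VHL null, 91389 and 85827 in VHL/FIH null, 70740 and 68627 in FIH null and 67584 and 66081 in wild type cells. Its differences from wild type were 0.33 in VHL null (adjusted p = 0.000758) and 0.41 in VHL/FIH null cells (adjusted p = 0.000157), in both probe sets, and -0.05 and -0.12 on the hybridization scale. Cox7a1, the heart and muscle form of the same subunit, read 241 and 194 in FIH null, 254 and 383 in VHL null, 1427 and 1167 in VHL/FIH null and 148 and 165 in wild type cells. Both wild type and both FIH null arrays were below 291.1, so the fold in VHL/FIH null cells was at least 4.46 over either group (adjusted p = 1.99e-05 and 5.37e-05), taking 291.1 as the level of the dim group. Against VHL null cells the difference was 1.99 on the log2 scale (SE 0.299, adjusted p = 0.00041). These 3 calls held in all 21 alternatives in which the gene was tested. Cox7a1 entered the test through the VHL/FIH null arrays, since only 1 other array, of VHL null cells, read it above 291.1. Its calls are therefore not independent of that group being high.

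In VHL null cells only 1 of 2 arrays read Cox7a1 above 291.1, and its call against wild type (at least 1.09-fold, adjusted p = 0.0266) was lost without wild type replicate 1 (adjusted p = 0.0965), wild type replicate 2 (adjusted p = 0.0561) or VHL null replicate 2 (adjusted p = 0.174). Of 7 markers of skeletal and heart muscle, 0 in VHL/FIH null, 2 in VHL null, 0 in FIH null and 0 in wild type cells were above 291.1 on both arrays. Their summed signal ran from 1002 to 1401 in VHL/FIH null and from 904 to 1136 in wild type cells. Des read 441 and 74.0 in VHL/FIH null against 134 and 76.5 in wild type cells, and Actc1 306 and 186 against 75.2 and 209. Myog read 110 and 14.2 in VHL/FIH null against 145 and 96.9 in wild type cells, and Tnnt2 115 and 125 against 179 and 249. Fabp4, an adipocyte marker, read 2153 and 1669 in VHL/FIH null against 330 and 403 in wild type cells, while Adipoq stayed at 82.6 and 85.6. Of 5 epithelial markers 3 were above 291.1 on both arrays in VHL/FIH null and 3 in wild type cells, and their summed signal ran from 40050 to 47375 in VHL/FIH null and from 10023 to 10117 in wild type cells. Krt19 made up most of that sum, at 46125 and 39118 in VHL/FIH null against 7962 and 7557 in wild type cells. Krt18 lay the other way, at 383 and 298 in VHL/FIH null against 1356 and 1393 in wild type cells, and Epcam read 460 and 518 in VHL/FIH null against 379 and 600 in wild type cells. The part of such differences between lines in the Cox7a1 result was not tested. In these bulk samples, fewer cells that express a gene and less RNA per cell cannot be told apart.

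Cox6b2, the testis form of subunit VIb, was above 291.1 only in VHL/FIH null cells, at 443 and 379, against 274 and 258 in VHL null, 68.0 and 43.3 in FIH null and 215 and 215 in wild type cells. It was at least 1.41-fold higher than in FIH null cells. Cox6b2 entered the test through the VHL/FIH null arrays alone, so its calls are not independent of that group being high. Cox8c, another testis form, read 637 and 678 in VHL/FIH null, 1084 and 836 in VHL null, 980 and 1212 in FIH null and 688 and 868 in wild type cells. Cox6a2, the muscle form of subunit VIa, read 375 and 70.9 in VHL/FIH null cells, a wide spread, and passed in no comparison. Their counterparts in most tissues, Cox6a1 and Cox6b1, differed from wild type by 0.21 and 0.12 in VHL null and by 0.14 and 0.11 in VHL/FIH null cells without passing. Cox8a fell by 0.28 in VHL/FIH null against wild type cells (adjusted p = 0.00785), in both probe sets, though not without wild type replicate 1 (adjusted p = 0.0875).

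Ndufa4, named for complex I but now counted in complex IV, read 34927 and 33488 in FIH null, 28921 and 27957 in VHL null, 25941 and 24331 in VHL/FIH null and 31785 and 30217 in wild type cells. The VHL/FIH null arrays were the lowest and the VHL null arrays next. It fell by 0.30 in VHL/FIH null against wild type cells (SE 0.058, adjusted p = 0.00161), a call that held in all 22 alternatives, and its -0.12 in VHL null cells did not pass. Its relative Ndufa4l2, a known HIF target outside the rule, read 88.3 and 74.3 in FIH null, 1114 and 1157 in VHL null, 4991 and 4713 in VHL/FIH null and 89.6 and 177 in wild type cells. Ndufa4l2 was at least 3.90-fold higher in VHL null (adjusted p = 1.28e-05) and at least 16.7-fold higher in VHL/FIH null against wild type cells (adjusted p = 1.19e-07), and 2.08 higher on the log2 scale in VHL/FIH null than in VHL null cells (adjusted p = 0.000174). Only arrays without VHL read Ndufa4l2 above 291.1, so it entered the test through them. Its calls against wild type are therefore not independent of those groups being high.

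Subunit IV, Cox4, is encoded outside the rule by Cox4i1 and by Cox4i2, whose induction by hypoxia is known from other cells. Cox4i1 differed from wild type by 0.01 in VHL null and 0.06 in VHL/FIH null cells, neither past the test. Cox4i2 read 64.9 and 65.7 in VHL null, 168 and 178 in VHL/FIH null, 241 and 122 in FIH null and 378 and 329 in wild type cells, so that wild type arrays were the highest. It was lower in VHL null cells (adjusted p = 0.00377), at least 1.21-fold below wild type. Only the wild type arrays read Cox4i2 above 291.1, so it entered the test through them. Its call is therefore not independent of wild type being high. Of the list that holds these and other HIF-linked respiratory genes, 11 were tested. In VHL null cells 7 were higher and 1, Cox4i2, lower than in wild type, against 15.5% and 28.4% of all genes. In VHL/FIH null cells 7 were higher and 1, Iscu, lower, against 17.8% and 23.6% of all genes. The smallest p values of the list in both comparisons were those of Pdk1, Bnip3, Higd1a and Mxi1. Their log2 differences from wild type were 2.65, 2.54, 1.48 and 1.35 in VHL null cells. In VHL/FIH null cells they were 2.76, 2.90, 1.63 and 1.45. Lonp1, the protease that removes Cox4i1 under HIF, was 1.03 higher in VHL null and 0.66 higher in VHL/FIH null against wild type cells (adjusted p = 9.23e-07 and 1.77e-05).

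ATP synthase had 17 tested genes. In VHL null cells 7 were higher and 1 lower than in wild type (median 0.16), against 15.5% and 28.4% of all genes. In VHL/FIH null cells 2 were higher and 4 lower (median 0.10), against 17.8% and 23.6% of all genes. Quantile normalization gave 1 higher and 4 lower in VHL null and 0 and 6 in VHL/FIH null cells, and the hybridization scale 0 and 15 in VHL null and 0 and 17 in VHL/FIH null cells. Atp5e, the epsilon subunit of the catalytic F1 part, read 22187 and 21895 in VHL null, 18864 and 20190 in VHL/FIH null, 17622 and 17317 in FIH null and 17520 and 17938 in wild type cells. It was 0.31 higher in VHL null against wild type cells (SE 0.056, adjusted p = 0.00102; -0.06 on the hybridization scale), and its 0.14 in VHL/FIH null cells did not pass. The 3 genes of the proton-carrying c subunit differed. Atp5g1 read 21542 and 21737 in VHL null, 21784 and 21606 in VHL/FIH null and 25336 and 24809 in wild type cells, a fall of 0.21 in each comparison (adjusted p = 0.00582 and 0.00663), which was lost when arrays were centred on their median (adjusted p = 0.0844 and 0.0692). Atp5g3 passed in neither.

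Atp5g2 read 38600 and 37646 in FIH null, 47377 and 41706 in VHL null, 34905 and 32782 in VHL/FIH null and 38526 and 38576 in wild type cells, so that VHL null arrays were the highest and VHL/FIH null arrays the lowest. Atp5md, a small membrane subunit also called DAPIT, had the same order, at 42062 and 39026 in FIH null, 51900 and 49517 in VHL null, 37222 and 35862 in VHL/FIH null and 43184 and 43315 in wild type cells. In VHL/FIH null against VHL null cells, Atp5md fell by 0.47 (SE 0.058, adjusted p = 9.54e-05) and Atp5g2 by 0.39 (SE 0.066, adjusted p = 0.000857), and both calls held in all 22 alternatives. Against wild type Atp5md was 0.23 higher in VHL null cells (adjusted p = 0.00784), lost with quantile normalization (adjusted p = 0.135) or without VHL null replicate 1 (adjusted p = 0.0678) and turned to -0.15 (adjusted p = 0.0411) on the hybridization scale, and lower by -0.24 in VHL/FIH null cells (adjusted p = 0.00578), lost when each chromosome was centred on its median (adjusted p = 0.136). Atp5a1, the F1 alpha subunit, read 56330 and 52926 in VHL/FIH null against 65232 and 63515 in VHL null cells, a fall of 0.24 in VHL/FIH null cells (adjusted p = 0.0066) that turned to 0.03 when each chromosome was centred on its median and was lost without VHL null replicate 1 (adjusted p = 0.0541).

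Groups lacking and having FIH were then compared, in cells with and without VHL. In FIH null against wild type cells 1 of the 82 genes was higher and 2 lower, against 1.96% and 4.59% of all genes (6.55% in either direction), with a median of 0.06. Ndufb11 was 0.28 higher (adjusted p = 0.0392), in all 3 probe sets, Cox7a2l, an assembly factor of supercomplexes, was lower by -0.25 (adjusted p = 0.0317), and Cox6b2 passed with every array of both groups below 291.1, which gives no measured difference. The count of higher genes was 0 without wild type replicate 2 or any 1 array of the FIH null and VHL null groups, and 5 without either VHL/FIH null array, while centring on the array median gave 24 higher and 1 lower and the hybridization scale 0 and 46. Each of the 3 calls was lost without FIH null replicate 2, at adjusted p = 0.133 for Ndufb11, 0.236 for Cox7a2l and 0.118 for Cox6b2.

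In VHL/FIH null against VHL null cells 7 genes were higher and 12 lower, against 22.3% and 15.4% of all genes (37.7% in either direction), and the median was -0.03 against 0.05 for all genes. Of the 12 lower genes 5 were among the 17 tested of ATP synthase and 4 among the 33 of complex I. Another 2 were among the 14 of complex IV and 1 among the 9 of complex III. Of the 7 higher genes 5 belonged to complex I. The count of higher genes was 3 without either VHL null array or VHL/FIH null replicate 1 and 4 without either FIH null array, and that of lower genes was 6 without VHL null replicate 1. The hybridization scale gave 2 higher and 39 lower. Ndufb2 was 0.33 higher (adjusted p = 0.000987), though not as a mean of its probe sets (adjusted p = 0.0706), and Ndufb9, an accessory subunit that read 40326 and 39191 in VHL/FIH null against 48903 and 47488 in VHL null cells, fell by 0.28 (adjusted p = 0.00162), a call lost with chromosome centring (adjusted p = 0.0715).

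The interaction is the log2 difference of VHL/FIH null from VHL null cells minus that of FIH null from wild type cells. It was called for 15 of the 82 genes, 2 positive and 13 negative, against 13.4% and 8.47% of all genes (21.9% either way). Its median was -0.11 over the 82 genes and 0.06 over all genes, and the median of the 82 was 0.0053 on the hybridization scale, where 7 were positive and 6 negative. The 2 positive genes were Cox7a1 and Cox6b2. Wild type and FIH null arrays read both below 291.1, VHL null arrays read Cox6b2 below it too, and both entered the test mainly through VHL/FIH null arrays, so the size of their interaction is not measured. The largest negative values were those of the Ndufs5 probe set, at -1.09 (SE 0.087, adjusted p = 1.09e-05), of the dim gene Cox8c, at -1.01 (adjusted p = 0.0203), and of Ndufs8, at -0.78 (SE 0.097, adjusted p = 0.000267). Atp5a1 followed at -0.41 (adjusted p = 0.00385), Ndufa2 at -0.40 (adjusted p = 0.00385) and Atp5md at -0.38 (adjusted p = 0.00717). With each chromosome centred on its median, Atp5a1 had -0.07 (adjusted p = 0.573) and Ndufa2 -0.06 (adjusted p = 0.664), and neither was called. The interaction of Ndufs8 and Atp5md held in all 21 alternatives, and that of the Ndufs5 probe set in all 21 that use it, whereas the shared probe set gave 0.07. No positive call was left without VHL/FIH null replicate 1, where Cox7a1 had an adjusted p of 0.0861 and Cox6b2 of 0.0547. The count of negative genes was 6 without FIH null replicate 1 or VHL null replicate 1 and 8 without FIH null replicate 2 or wild type replicate 2.

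**Figure D5:**
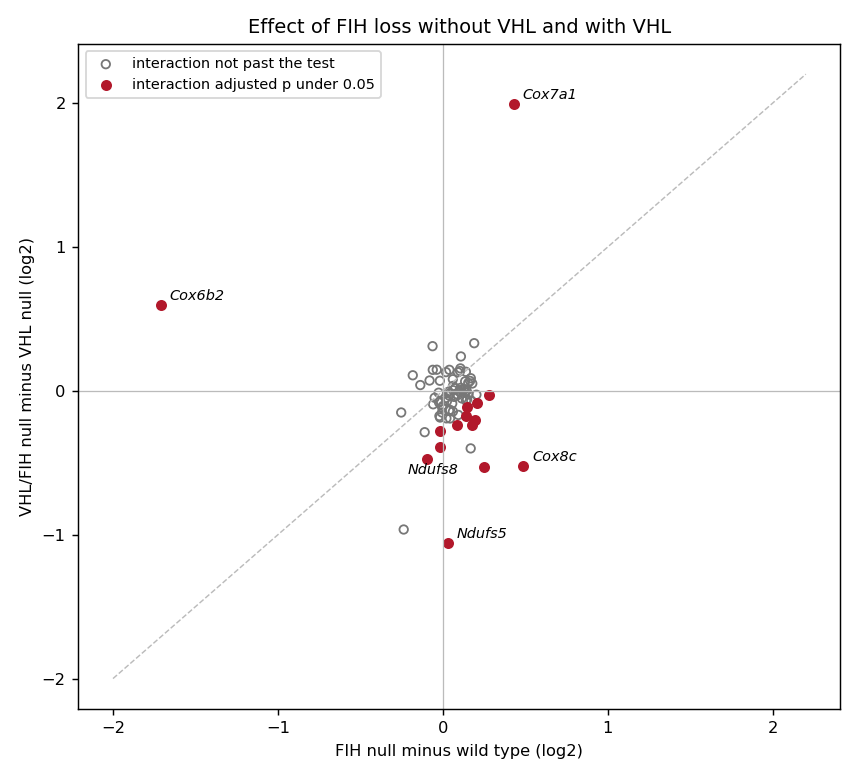
Log2 difference of FIH null from wild type (horizontal) and of VHL/FIH null from VHL null cells (vertical) for the 82 tested genes. The dashed line marks equal differences, and filled points are the 15 genes whose interaction passed limma's test. Most genes lie near 0 on both axes, Ndufs5 and Ndufs8 lie below the line, and Cox7a1 and Cox6b2 lie above it, with every FIH null and wild type array under 291.1, so that their horizontal positions are not measured differences.

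The last comparison sets VHL/FIH null against FIH null cells, which differ in VHL and also in their line of origin. Here 13 genes were higher and 17 lower, against 20.6% and 25.0% of all genes (45.5% in either direction). Ndufv3, Cox5a, Cox7a2, Ndufb6 and Ndufc1 were among the higher genes, at 0.94, 0.45, 0.35, 0.33 and 0.27, as were Cox7a1 and Cox6b2, for which only the bounds given above hold. Ndufs8, Ndufb11, Uqcrfs1, Ndufa4 and Sdha were among the lower ones, at -0.58, -0.51, -0.46, -0.44 and -0.42. The 3 probe sets of Ndufb11 ran from -0.51 to 0.07 in this comparison, with 1 of them called. The 2 probe sets of Ndufb6 ran from -0.01 to 0.33, with 1 called. On the hybridization scale 4 were higher and 60 lower.

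Genes that build or serve the chain were read from lists. Of 44 tested assembly factors 7 were higher and 4 lower in VHL null, and 6 higher and 8 lower in VHL/FIH null against wild type cells. For these lists the shares over all genes are those given above, 15.5% higher and 28.4% lower in VHL null and 17.8% higher and 23.6% lower in VHL/FIH null against wild type cells, beside 15.9% and 9.09% and then 13.6% and 18.2% of the assembly factors. Timmdc1, an assembly factor of the membrane arm of complex I, read 4223 and 4150 in VHL/FIH null, 1941 and 1975 in VHL null, 1338 and 1396 in FIH null and 1782 and 1690 in wild type cells. It was 1.26 higher in VHL/FIH null against wild type cells (SE 0.091, adjusted p = 1.27e-06) and had an interaction of 1.43 (adjusted p = 2.77e-05). Lrpprc, which keeps mitochondrial mRNAs stable, fell by 0.77 (adjusted p = 4.99e-06), and Cox10, which makes the heme of complex IV, by 0.75 (adjusted p = 0.000325) in VHL/FIH null against wild type cells.

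Of 22 tested regulators of mitochondrial gene expression, 2 were higher and 1 lower in VHL null and 2 higher and 5 lower in VHL/FIH null against wild type cells, or 9.09% and 4.55% in VHL null and 9.09% and 22.7% in VHL/FIH null cells, against the same shares over all genes. Gabpa, the DNA-binding part of GABP, read 13728 and 18040 in VHL/FIH null against 10975 and 9537 in wild type cells and was 0.62 higher (adjusted p = 0.000932), whereas Pprc1, a coactivator, fell by 0.46 (adjusted p = 0.000189) and Twnk, the mitochondrial helicase, by 0.60 (adjusted p = 0.00345). Of 76 mitochondrial ribosomal protein genes, 16 were higher and 14 lower in VHL null and 7 higher and 15 lower in VHL/FIH null against wild type cells, with medians of 0.07 and -0.03. That is 21.1% and 18.4% in VHL null and 9.21% and 19.7% in VHL/FIH null cells, against 15.5% and 28.4% and against 17.8% and 23.6% of all genes. Of 13 tested enzymes of the tricarboxylic acid cycle outside the rule, 2 were higher and 5 lower in VHL null and 1 higher and 4 lower in VHL/FIH null cells, or 15.4% and 38.5% in VHL null and 7.69% and 30.8% in VHL/FIH null cells, against 15.5% and 28.4% and against 17.8% and 23.6% of all genes. Idh2, the NADP-linked isocitrate dehydrogenase, fell by 0.82 and 0.75 in these comparisons, and Suclg2, a subunit of succinyl-CoA ligase that precedes succinate dehydrogenase in the cycle, by 0.63 and 0.64.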

How the data were processed

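RNA of 8 cell samples, 2 in each of 4 groups, was hybridized to Affymetrix Mouse Genome 430 2.0 arrays. The authors deposited 1 MAS5 intensity per probe set and array, per the submitters' processing notes. The MAS5 version and settings are not given in the sources used here. The labels call the replicates biological but name no separate lines or animals, so p-values measure the spread between these samples, and the number of arrays limits the precision.

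Signals were turned into log2(signal + 16). Of 45101 probe sets, 24523 had a signal above 291.1, the median over all arrays, on at least 2 arrays. Where several probe sets of a gene passed, the brightest on average stood for it, which gave 11564 genes. Symbols came from the platform annotation, updated through RefSeq. limma 3.58.1 in R 4.3.3 fitted the 4 group means with a variance trend, and 6 contrasts were tested with Benjamini-Hochberg adjustment over all genes at 0.05. "At least" folds set a group under 291.1 on both arrays to that value. The procedure was tested on simulated data.

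Genes were named by rule. Per comparison and complex the rule took up to 3 called rises and 3 called falls by size. The text leaves out some of them, such as Ndufb1 and Atp5j. Always named were the Sdh genes, Cycs, Cyc1, Ndufa4, tissue isoforms, untested genes, Ndufa4l2, Cox4i1 and Cox4i2. Genes whose probe sets disagree were named too. The rule also took up to 4 called genes by p in each pathway list, of which the text names only some. Members and lists were chosen with earlier results of these data known. The probe set shared with Ndufs5-ps, and members that this naming rule did not pick, such as Ndufs7, were chosen after their values were seen. Same-numbered replicates were checked for pairing: their deviations correlated at 0.0087 to 0.0393 over 6 pairs of groups, so no block was used. Alternatives covered the pseudocount, filter, scale, probe set choice, fit and each array left out.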

Additional observations from a re-analysis of the deposited data

Results flagged for a closer look

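The difference between groups lacking and having FIH was unlike without and with VHL, by limma's interaction test, for 15 of the 82 genes. Genotype and line of origin cannot be told apart in it. The value is the log2 difference of VHL/FIH null from VHL null cells minus that of FIH null from wild type cells. In complex I it was -1.09 for the Ndufs5 probe set, -0.78 for Ndufs8, -0.40 for Ndufa2, -0.31 for Ndufb11, -0.30 for Ndufa10, -0.26 for Ndufa1 and -0.26 for Ndufb9. In complex IV it was 2.31 for Cox6b2, 1.56 for Cox7a1, -1.01 for Cox8c and -0.32 for Ndufa4. The Cox6b2 and Cox7a1 values are differences of fitted means that include groups under 291.1 on both arrays, so they give no measured size. In ATP synthase it was -0.41 for Atp5a1, -0.38 for Atp5g2, -0.38 for Atp5md and -0.32 for Atp5k. Only the calls of the Ndufs5 probe set, Ndufs8 and Atp5md held on every other scale and with each array left out. Calls of Ndufb11, Ndufa1 and Ndufb9 were lost with quantile normalization, chromosome centring and the hybridization scale. Calls of Atp5g2 and Atp5k were lost with chromosome centring and the hybridization scale. Ndufa10 lost its call with quantile normalization and the hybridization scale, and Ndufa4 with the latter. Calls of Ndufb11, Ndufa1, Ndufb9, Atp5g2, Atp5k, Ndufa10 and Ndufa4 were also lost with an array left out. So were those of Cox8c, Cox6b2 and Cox7a1. Ndufa2 and Atp5a1 lie on a chromosome whose tested genes had a median of -0.34 in the same contrast, and their values were -0.06 and -0.07 after each chromosome was centred on its median. The part of that shift in the result was not tested.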

How the results depend on the processing

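Counts below are members of the 82 called higher and lower. For FIH null against wild type they were 2 and 1 with chromosome centring, the mean of probe sets or only the compared groups, 24 and 1 with median centring, 0 and 46 on the hybridization scale, 0 and 1 with no filter, no variance trend or a 1.5-fold minimum, 0 higher with quantile normalization, 6 higher with array weights, 7 higher with the replicate block, and 1 lower with the 75th percentile filter or without _x_at and _s_at probe sets. For VHL null against wild type they were 11 and 16 with quantile normalization, 42 and 3 with median centring, 44 and 2 with chromosome centring, 1 and 64 on the hybridization scale, 2 and 0 at 1.5-fold, and 14 higher with no trend. For VHL/FIH null against wild type they were 12 and 22, 31 and 8, 2 and 76 and 2 and 1 with quantile normalization, median centring, the hybridization scale and 1.5-fold, 8 lower with chromosome centring, and 13 higher with no trend or only the compared groups. For VHL/FIH null against VHL null, 4 were higher with array weights, median centring, no filter, no trend or only the compared groups, 2 with chromosome centring, 4 and 19 with the mean of probe sets, 1 and 1 at 1.5-fold, and 2 and 39 on the hybridization scale. For VHL/FIH null against FIH null they were 3 and 2 at 1.5-fold, 4 and 60 on the hybridization scale, and 27 lower with quantile normalization. The interaction had 0 positive with the 75th percentile filter, 1 with no filter, 5 with quantile normalization, 7 positive and 6 negative on the hybridization scale, and 21, 6 and 3 negative with median centring, no trend and 1.5-fold. With 1 array left out, counts ran from 0 to 5 higher and 0 to 2 lower (FIH null against wild type), 12 to 31 and 5 to 9 (VHL null against wild type), 12 to 25 and 8 to 13 (VHL/FIH null against wild type), 3 to 6 and 6 to 14 (VHL/FIH null against VHL null), 9 to 14 and 12 to 21 (VHL/FIH null against FIH null), and 0 to 2 and 6 to 17 (interaction). The replicate block, whose numbers do not pair the samples, gave 32 and 10 for VHL null and 21 and 13 for VHL/FIH null against wild type.

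Values of single genes that turned were as follows. On the hybridization scale, VHL null against wild type gave -0.15 for Uqcrh, -0.042 for Cox5a, -0.052 for Cox7a2, -0.064 for Atp5e, -0.10 for Atp5j2, -0.15 for Atp5md, -0.21 for Cycs, -0.071 for Sdhaf2, -0.29 for Sdhd, -0.27 for Cyc1, -0.26 for Cox6b1 and -0.35 for Cox7a2l. VHL/FIH null against wild type gave -0.090 for Ndufb6, -0.21 for Ndufa1, -0.24 for Uqcrb, -0.35 for Uqcrh, -0.058 for Cox5a, -0.12 for Cox7a2, -0.28 for Atp5o, -0.31 for Atp5h, -0.35 for Cycs, -0.40 for Sdhd, -0.38 for Cox6a1 and -0.42 for Cox6b1. VHL/FIH null against FIH null gave -0.0041 for Sdhd, -0.075 for Uqcrb, -0.10 for Atp5e and -0.20 for Cycs, and FIH null against wild type -0.22 for Sdha, -0.18 for Sdhb, -0.15 for Cycs, -0.22 for Cyc1 and -0.20 for Cox7a2. Chromosome centring gave 0.033 for Atp5a1 in VHL/FIH null against VHL null cells and -0.24 for the interaction of Cox7a2, quantile normalization -0.027 and -0.0088 for Cycs in VHL null and VHL/FIH null against wild type, and the mean of probe sets 0.073 for Ndufb11 in VHL null cells. The shared Ndufs5 probe set gave 0.29 against wild type, 0.17 against VHL null, 0.20 against FIH null and 0.073 for the interaction. Of 91 calls on named genes, 29 held in every setting tried other than the shared Ndufs5 probe set, and the cause of the other changes was not tested. Cox6b2, Cox6a2, Cox7a1 and Cox8c lie near the median signal, which limits their precision.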
